A study of Mus musculus with 6 samples.

Results

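The costimulatory and checkpoint ligands described here are 9 genes whose products dendritic cells display to T cells: Cd80, Cd86, Cd40, Cd83, Cd274, Pdcd1lg2, Icosl, Tnfsf9 and Cd48. They were chosen by name, through their NCBI Gene numbers, and all 9 were found among the 17567 rows of the count files. All 9 also passed the filter on low counts, which kept 12209 genes. Transcripts were read in bulk from mouse immature dendritic cells, the stage that samples antigen before maturation. They had been grown from the bone marrow of C57BL/6 male mice aged 6 weeks. Every culture received GM-CSF at 20 ng/mL, interleukin-4 at 10 ng/mL and 10% serum, and was harvested on day 6 and purified on magnetic beads for CD11c. The H2O2 group then received hydrogen peroxide, an oxidant, at 100 µM during 24 h, and the control group is labelled only as control. The labels place 3 samples in each group and do not say whether they came from separate mice or cultures, so the p-values cover only the spread between these libraries, which may be technical.

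A dendritic cell gives a T cell more than antigen. CD80 and CD86 bind CD28, which supports T cell activation, and CTLA-4, which restrains it, while CD40 receives the CD40 ligand of helper T cells and drives NF-kB signalling and maturation. The ligands PD-L1 (Cd274) and PD-L2 (Pdcd1lg2) engage the inhibitory receptor PD-1, so the balance of the ligands, and not their presence alone, shapes the T cell response. Immature cells grown with GM-CSF and interleukin-4 carry low to moderate levels of costimulatory molecules, and maturation raises them.

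The 6 labelled samples hold 5 distinct libraries, 3 control and 2 H2O2, since the file of H2O2 replicate 3 equals that of H2O2 replicate 1 in all 17567 values and was counted once. It is called replicate 1 below, although the files do not show which of the 2 labels the values belong to. Library totals lay between 16232604 and 16672491 estimated counts. The libraries also fell into 2 sets. In control replicate 1 and H2O2 replicate 1 the Y-linked genes Ddx3y, Eif2s3y, Kdm5d and Uty summed to 106 and 96.4 CPM (counts scaled to a common library size), and these libraries are called set A. In the other 3 libraries, called set B, the sum lay between 0.12 and 0.427 CPM, although the labels give male mice throughout. Control replicates 2 and 3 were the closest pair of distinct libraries (chi-square per degree of freedom 5.07, against at least 27.2 for any other pair). All changes under H2O2 below come from edgeR's quasi-likelihood test with a term for the set, fitted over all 12209 genes, and thus compare H2O2 with control within sets. The spread behind their p-values therefore leaves out the difference between the sets and has 2 residual degrees of freedom. Only control replicates 2 and 3 share both group and set, so no H2O2 library has a replicate within its set. A gene was called when its p, adjusted by Benjamini and Hochberg's method over all genes tested, was 0.05 or lower. Of the dendritic cell markers, Itgax, the CD11c gene, measured between 1473 and 2177 CPM and Cd74, the invariant chain of MHC class II, between 2243 and 3136 CPM. Flt3 was scarce, at 1.43 to 12.7 CPM, and Cd209a did not pass the filter. The 6 T and natural killer cell markers summed to between 1.3 and 3.08 CPM and the 5 B cell markers to between 0.52 and 3.48 CPM.

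**Figure D1:**
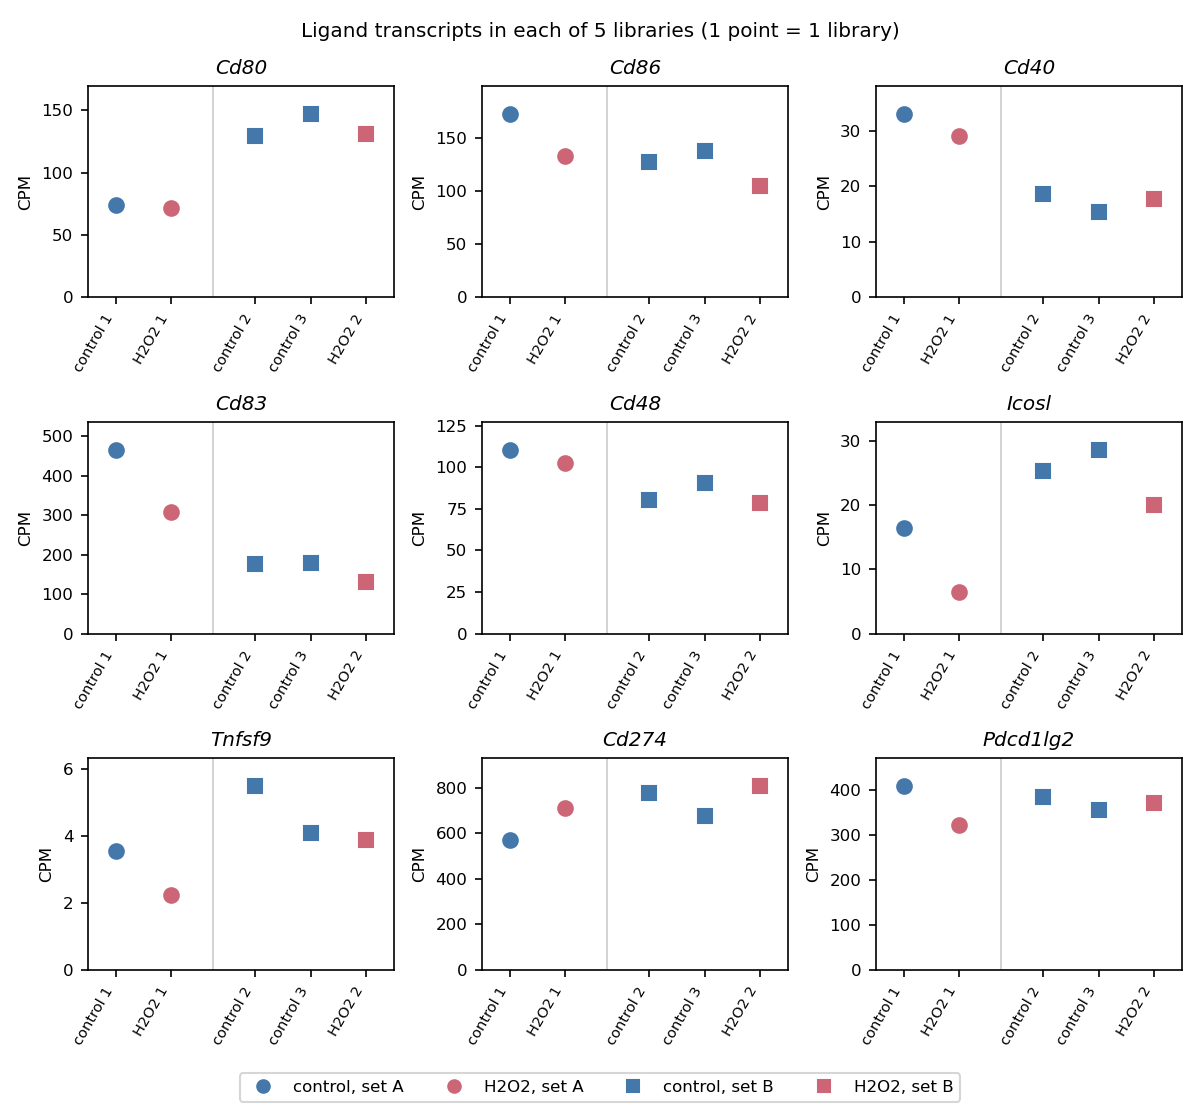
Level of each ligand gene in CPM (linear axis from 0), with 1 point for each of the 5 distinct libraries, control in blue and H2O2 in red, set A as circles left of the line and set B as squares right of it. Cd83, Cd86, Icosl, Tnfsf9 and Cd48 were lower in H2O2 than in every control library of the same set, as were 28% of all tested genes. Cd80, Cd40 and Cd83 differed mainly between the sets.

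Among the 9 ligand genes, Cd83 and Cd86 fell under H2O2 and none rose. That is 22.2% of the ligand genes, against 8.54% of all 12209 genes called in either direction (3.93% higher and 4.61% lower). With libraries scaled to their totals alone the split over all genes was 384 higher and 910 lower, against 480 and 563 here, and 3 ligand genes were lower, Icosl being the third. The members' median log2 change was -0.15, beside 0.01 over all genes tested. The 2 decreases were small, 1.43-fold for Cd83 and 1.28-fold for Cd86. When a call was also required to reach the series' own threshold of 1, read as a log2 change, 0 of the 9 passed, beside 2.17% of all genes. Between the sets 7 of the 9 were called, with 4 higher and 3 lower in set A, beside 36% of all genes called.

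CD83 is an immunoglobulin-family surface protein that marks maturing dendritic cells and shields CD86 and MHC class II from degradation. Cd83 (chromosome 13, 43785112 to 43803133, GRCm38.p6) measured 465.7 CPM in the set A control and 309 CPM in the set A H2O2 library. In set B the controls held 177.5 and 179.5 CPM and the H2O2 library 131 CPM. H2O2 was thus lower than every control of its own set, a pattern held by 28% of all tested genes. The groups as a whole overlapped because both set A libraries lay above all of set B. The log2 change was -0.51 ± 0.0704 (SE; 274 ± 166 CPM, n = 3 control, to 220 ± 126 CPM, n = 2 H2O2; adjusted p = 0.018 by edgeR). The difference was -0.59 in set A and -0.44 and -0.46 against the 2 controls of set B. Without the set term the adjusted p by edgeR was 0.937, without H2O2 replicate 2 it was 0.0994 and without the low-count filter 0.0505, with log2 changes of -0.32, -0.59 and -0.51.

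CD86 is the CD28 and CTLA-4 ligand that dendritic cells already carry before maturation. Cd86 (chromosome 16, 36568956 to 36666158) measured 173 CPM in the set A control and 134 CPM in the set A H2O2 library. In set B it had 128 and 138 CPM in the controls and 105 CPM under H2O2. H2O2 was again lower than every control of its set, and the groups overlapped, since H2O2 replicate 1 lay above control replicate 2. The log2 change was -0.36 ± 0.0717 (146 ± 23.7 to 119 ± 20.4 CPM; adjusted p = 0.0326 by edgeR). Set A alone gave -0.37 and set B -0.29 and -0.40. This call rested on single libraries: by edgeR its adjusted p was 0.0603 without control replicate 2, 0.126 without control replicate 3 and 0.142 without H2O2 replicate 2. It was 0.761 without the set term and 0.0669 without the low-count filter. The log2 change itself lay between -0.42 and -0.30 in all 13 alternative settings.

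Cd80, the other ligand of CD28 and CTLA-4, was not called. In set A it measured 74.0 CPM in the control and 71.7 CPM under H2O2, and in set B 129 and 147 CPM in the controls and 131 CPM under H2O2. Every set A library was thus below every set B library, and within a set treated and control libraries lay close together. The log2 change under H2O2 was -0.07 ± 0.0813 (adjusted p = 0.63 by edgeR). CD40, the receptor for the helper T cell signal, was scarcer: Cd40 had 33.1 CPM in the control and 29.0 CPM under H2O2 in set A, and 18.6 and 15.3 CPM in the controls and 17.7 CPM under H2O2 in set B. Its log2 change was -0.05 ± 0.124 (adjusted p = 0.824 by edgeR), and its sign was positive without the set term and without either set A library.

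Icosl, whose product binds the T cell receptor ICOS, showed the largest fitted change of the 9 genes without reaching the threshold. The set A control held 16.4 CPM and the set A H2O2 library 6.56 CPM, and the set B controls 25.3 and 28.7 CPM with 20.0 CPM under H2O2. H2O2 was lower than the controls in each set, while the groups overlapped. The log2 change was -0.76 ± 0.2 (adjusted p = 0.0639 by edgeR), and the separate differences were -1.31 in set A and -0.34 and -0.52 in set B. DESeq2 with the same design called it (adjusted p = 0.0082), as did edgeR when libraries were scaled to their totals alone (adjusted p = 0.0315). Without H2O2 replicate 2 the log2 change was -1.33, and without either set A library it was between -0.44 and -0.43. A test of whether the change differed between the sets gave an interaction of -0.89 ± 0.235 on the log2 scale (adjusted p = 0.177 by edgeR).

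Tnfsf9, a TNF family ligand that costimulates T cells through Tnfrsf9, was the scarcest member, at 3.55, 5.50 and 4.09 CPM in control replicates 1 to 3 and 2.25 and 3.89 CPM in H2O2 replicates 1 and 2. Its lowest library held 38 counts, for which the exact Poisson 95% interval is 26.9 to 52.2 counts, covering counting error only. The log2 change was -0.44 ± 0.221 (adjusted p = 0.247 by edgeR). Cd48, which binds CD2 and CD244 on lymphocytes, stood at 111, 80.1 and 90.5 CPM in the controls and 103 and 78.5 CPM in H2O2. That is a log2 change of -0.11 ± 0.0792 (adjusted p = 0.391 by edgeR), and the groups overlapped. Cd83, Cd86, Icosl, Tnfsf9 and Cd48 were lower in all 3 within-set differences, 5 of the 9 genes, a pattern held by 28% of all tested genes. In no ligand gene were all H2O2 libraries beyond all controls, against 13% of all genes higher and 10.7% lower in that way.

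**Figure D2:**
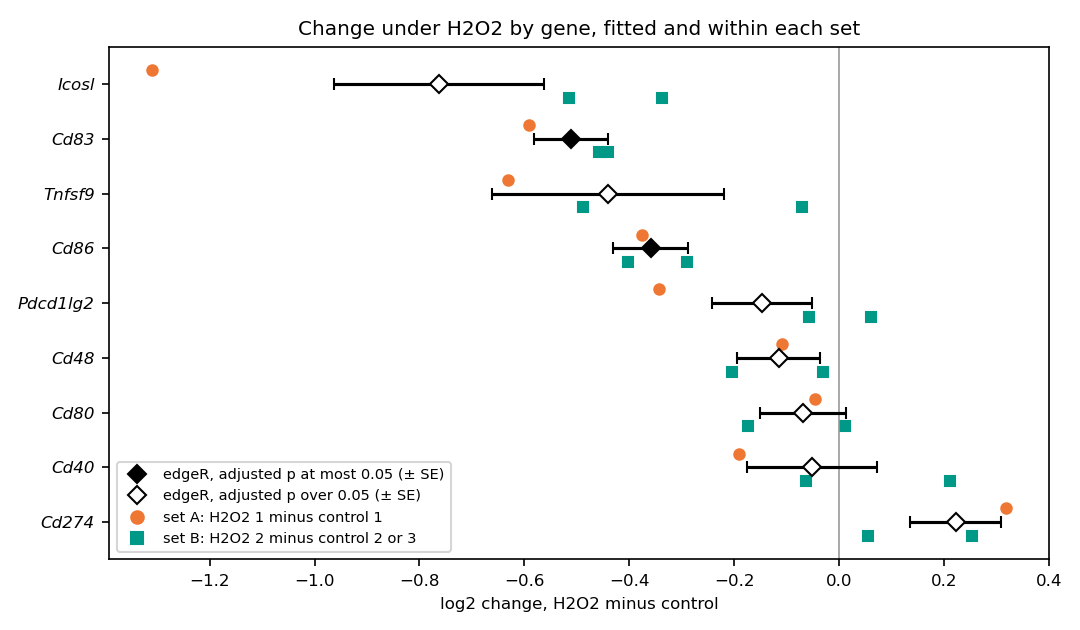
Log2 change of each ligand gene, H2O2 minus control. Diamonds give the edgeR estimate with its SE, filled for Cd83 and Cd86 whose adjusted p was at most 0.05, circles the difference within set A and squares the 2 differences within set B; Icosl shows the widest gap between the sets.

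The PD-1 ligand genes lie side by side on chromosome 19, Cd274 at 29362107 to 29388095 and Pdcd1lg2 at 29410919 to 29472927, 22.8 kb apart with 0 RefSeq genes wholly between them. For Cd274 the set A libraries gave 569 CPM in the control and 711 CPM under H2O2, and the set B libraries 779 and 679 CPM in the controls and 809 CPM under H2O2. It was the only member higher in all 3 within-set differences (0.32 in set A, 0.05 and 0.25 in set B), which 28.5% of all genes also were. The log2 change was 0.22 ± 0.0869 (676 ± 105 to 760 ± 69.5 CPM; adjusted p = 0.153 by edgeR) and was not called. For Pdcd1lg2 the values were 409 CPM in the control and 322 CPM under H2O2 in set A, and 385 and 354 CPM in the controls and 370 CPM under H2O2 in set B. The treated library was lower in set A and between the controls in set B. The log2 change was -0.15 ± 0.0954 (adjusted p = 0.369 by edgeR), and the interaction with the set was -0.34 ± 0.122 (adjusted p = 0.288 by edgeR). Neither neighbour was called under H2O2 in any setting tried.

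The promoters of these neighbours are shown because the genes share a locus while their levels followed different courses over the 5 libraries. The RefSeq promoter table used here (GRCm38.p6) has entries for 5 of the 9 genes. The 250 bases before the start site, on the plus strand, are chr19:29367188-29367437 for Cd274 and chr19:29410669-29410918 for Pdcd1lg2. For Cd274 that start site lies inside the RefSeq gene interval given above, which includes predicted transcripts. Capitals mark matches, on either strand, to 5 motifs: TTCNNNGAA (STAT), TTC and GAA parted by 4 bases (the STAT6 type), TGANTCA (AP-1), TGACNNNGC (antioxidant response core) and the NF-kB consensus.
Cd274: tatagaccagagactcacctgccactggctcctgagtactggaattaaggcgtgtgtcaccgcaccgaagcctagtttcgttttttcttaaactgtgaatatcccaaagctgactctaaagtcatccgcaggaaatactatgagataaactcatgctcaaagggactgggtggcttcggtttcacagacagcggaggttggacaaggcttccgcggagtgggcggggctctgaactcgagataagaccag
Pdcd1lg2: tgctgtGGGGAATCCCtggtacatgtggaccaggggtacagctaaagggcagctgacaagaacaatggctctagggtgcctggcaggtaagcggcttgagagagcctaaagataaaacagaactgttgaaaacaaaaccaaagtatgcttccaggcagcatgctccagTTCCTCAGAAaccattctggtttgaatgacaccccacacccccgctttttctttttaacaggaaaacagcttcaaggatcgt
The Pdcd1lg2 window held 1 NF-kB match, starting 244 bases before the start site, and 1 match of the STAT6 type, 82 bases before it. Among 32851 windows of the same length, 3.9% held the NF-kB consensus and 5.85% the STAT6 type. The Cd274 window held 0 matches to any of the 5 motifs, which says only that these letters are not in this window.

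Per length, the PD-1 ligands had the highest means of the 9 transcripts over the 5 libraries, though not in each library: in the set A control Cd83, at 188 CPM per kb, lay above Cd274, at 157. Levels here are CPM per kb of exon, from the union of exons in GENCODE M21, and the annotation behind the counts is not given in the sources used here. Cd274 averaged 196 CPM per kb over the 5 libraries (157 to 223) and Pdcd1lg2 188 (164 to 208), and their ranges overlapped. Cd83 followed at 102 (52.8 to 188), Cd48 at 77.7 (66.0 to 93.0) and Cd86 at 53.4 (41.2 to 68.2), each overlapping the gene before it. Cd80 came next at 29.9 (19.4 to 39.8), below every value of Cd86. Cd40 at 7.62 (5.13 to 11.1) lay below every value of Cd80 and overlapped Icosl at 6.89 (2.33 to 10.2), and Tnfsf9 was last at 2.99 (1.74 to 4.26), overlapping Icosl.

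**Figure D3:**
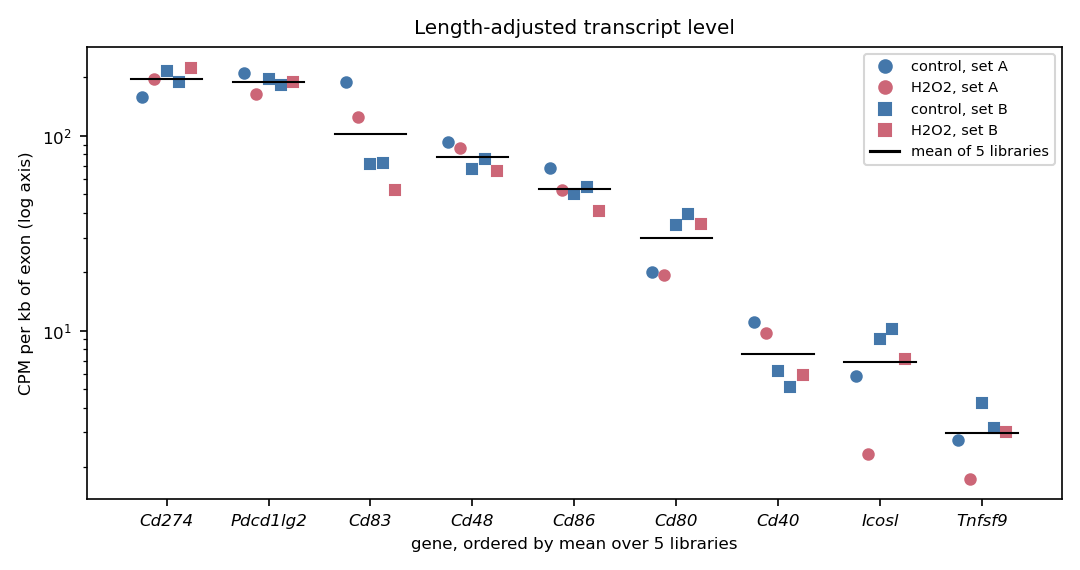
CPM per kb of exon (log axis) for the 9 ligand genes, ordered by their mean over the 5 distinct libraries (black line), with 1 point per library. Cd274 and Pdcd1lg2 have the highest means, 196 and 188 CPM per kb, while Cd83 reaches 188 in the set A control, and Cd40, Icosl and Tnfsf9 lowest, with means from 2.99 to 7.62.

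The balance between ligands can be read from ratios of these levels within a library, which were chosen after the values were seen and carry no test. The ratio of Cd274 to Cd86 was 2.31 in the set A control and 3.73 in the set A H2O2 library, and in set B 4.27 and 3.44 in the controls and 5.42 under H2O2. Within each set the treated library had the higher ratio of this inhibitory to this costimulatory transcript. This follows from the single genes, since Cd274 was higher and Cd86 lower in every within-set difference. The ratio of Cd86 to Cd80 was 3.41 and 2.71 in the control and H2O2 libraries of set A, and in set B 1.44 and 1.37 in the controls and 1.17 under H2O2. That ratio parted the sets without overlap, and it restates that Cd86 was higher and Cd80 lower in set A.

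The sets differed in the ligand genes more than the treatment did. Of the 9 genes, 77.8% were called between set A and set B by the same edgeR fit, beside 36% of all genes (19.1% higher and 16.9% lower in set A). Their median absolute log2 difference was 0.57, against 0.27 over all genes, while for H2O2 it was 0.22 and 0.17. Cd83 was 2.5-fold higher in set A (log2 1.32 ± 0.0682, adjusted p = 5.53e-05 by edgeR) and Cd40 1.82-fold (log2 0.86 ± 0.121, adjusted p = 0.00233). Cd48 and Cd86 were higher by 0.38 ± 0.0783 and 0.37 ± 0.0704. Icosl was 2.07-fold lower in set A (log2 -1.05 ± 0.201, adjusted p = 0.00784 by edgeR) and Cd80 1.85-fold lower (log2 -0.89 ± 0.0831, adjusted p = 4.21e-04). Cd274 was lower by a log2 difference of -0.28 ± 0.0878 (adjusted p = 0.0436 by edgeR), a call lost when any one library but H2O2 replicate 1 was left out (adjusted p from 0.0614 to 0.25), with library totals alone (0.107) and with no low-count filter (0.0636). Tnfsf9 (log2 -0.57 ± 0.221) and Pdcd1lg2 (log2 -0.0012 ± 0.0951) were not called. Set A held more Cd83, Cd40, Cd86 and Cd48 and less Cd80 and Icosl, so costimulatory genes lay on both sides. What separates the sets besides the Y-linked genes is not in the labels.

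The promoters of Cd80 and Icosl, both lower in set A, are shown with the same marking. They are chr16:38458683-38458932 and chr10:78069118-78069367, on the plus strand, 250 bases before the start site in the promoter table. For Cd80 that site and its window lie inside the RefSeq gene interval, 38457430 to 38495958.
Cd80: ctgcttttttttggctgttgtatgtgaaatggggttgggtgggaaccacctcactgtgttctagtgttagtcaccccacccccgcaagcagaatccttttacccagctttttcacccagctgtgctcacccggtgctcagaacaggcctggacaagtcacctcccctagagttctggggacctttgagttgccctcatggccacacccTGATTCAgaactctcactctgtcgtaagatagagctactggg
Icosl: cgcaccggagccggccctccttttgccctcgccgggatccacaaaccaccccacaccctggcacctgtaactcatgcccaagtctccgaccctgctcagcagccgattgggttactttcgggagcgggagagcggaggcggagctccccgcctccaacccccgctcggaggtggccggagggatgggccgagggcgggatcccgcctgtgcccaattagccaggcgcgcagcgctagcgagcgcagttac
The Cd80 window held 1 AP-1 match, 42 bases before the start, a motif found in 6.75% of all windows, and the Icosl window, with 68.8% G and C, held 0 matches to the 5 motifs. The remaining entry, Cd48, held 1 antioxidant response core, 225 bases before the start, a motif found in 10.2% of all windows. The Cd48 window, too, lies inside the RefSeq gene interval, 171681245 to 171705258.

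**Figure D4:**
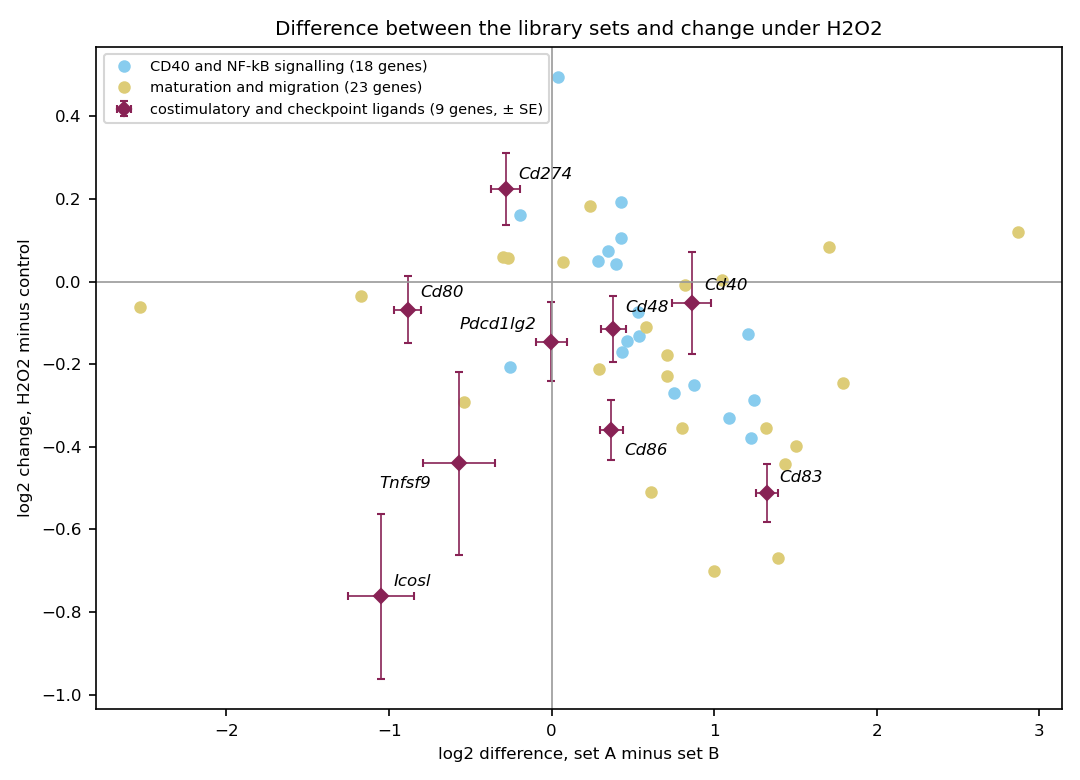
Log2 difference between set A and set B (x axis) and log2 change under H2O2 (y axis) from the same edgeR fit, for the 9 ligand genes (diamonds, ± SE), 18 CD40 and NF-kB signalling genes and 23 maturation and migration genes (circles). Cd83 lies at 1.32 and -0.51, beside several maturation genes, and Icosl and Cd80 lie at the opposite side of the set axis.

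Whether the change under H2O2 differed between the sets was tested with an interaction term, which leaves 1 residual degree of freedom. EdgeR called 0 of the 9 ligand genes and 2 of all 12209 (0.0164%), with 2 ligand genes, Icosl and Pdcd1lg2, and 1674 of all genes at an unadjusted p under 0.05. DESeq2 also called 0 and gave no adjusted p for Cd40, Icosl and Tnfsf9.

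The genes around these ligands were counted in lists chosen by name. These counts leaned on H2O2 replicate 2: without it 1 gene in all was called by edgeR, and 0 in any list, and without the set term 0 genes were called. Without control replicate 3 the maturation genes called lower numbered 1 instead of 6, and the CD40 and NF-kB genes, the other inhibitory ligands and the regulators had 0 called. Signalling from CD40 runs through TRAF adaptors to the NF-kB subunits. Of 18 such genes 1 rose and 2 fell under H2O2, 16.7% of them, beside 8.54% of all genes. Their median log2 change was -0.13. The regulatory subunit gene Ikbkg rose 1.41-fold, from 117, 109 and 108 CPM in the controls to 155 and 160 CPM, with no overlap (log2 0.49 ± 0.0702, adjusted p = 0.0187 by edgeR). The adaptor Traf1 fell by 0.33 ± 0.0665 and Relb, the subunit of the noncanonical pathway, fell by 0.38 ± 0.0785 on the log2 scale. Rel, the most abundant, stood at -0.13 ± 0.0649 (adjusted p = 0.258 by edgeR). Between the sets 15 of the 18 were higher in set A and 1 was lower, beside 19.1% and 16.9% of all genes. Rel was 2.31-fold and Traf1 2.13-fold higher, the same direction as Cd83 and Cd40.

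Of 23 tested maturation and migration genes, 6 fell and 0 rose, with a median of -0.18. That is 26.1% of them, beside 8.54% of all genes called either way and 4.61% called lower. Fscn1, which bundles actin in dendrites, fell by 0.67 ± 0.0742 (348 to 221 CPM in set A, and 128 and 140 to 83.3 CPM in set B) and the calcium channel subunit gene Cacnb3 by 0.44 ± 0.0676. Il4i1, Il15ra, Marcksl1 and Nudt17 were the other 4. The most abundant, the chemokine gene Ccl22, stood at -0.21 ± 0.0839 (adjusted p = 0.159 by edgeR). Between the sets 17 were higher in set A and 4 lower, beside 19.1% and 16.9% of all genes.

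Among 18 regulators of ligand expression and turnover, Marchf1 alone was called and rose. That is 5.56% of the list, beside 8.54% of all genes. Marchf1 encodes the membrane ligase that marks CD86 and MHC class II for degradation, the activity that CD83 opposes. That activity acts on protein, which was not measured here, and a link to the changes of Cd83 and Cd86 was not tested. Marchf1 had 98.8 CPM in the control and 132 CPM under H2O2 in set A, and 219 and 205 CPM in the controls and 383 CPM under H2O2 in set B. Treated libraries were higher in each set, and the groups overlapped (log2 0.67 ± 0.105, adjusted p = 0.0223 by edgeR). It was 2.45-fold lower in set A, opposite to Cd83. The kinase gene Jak2, the most abundant of the list, stood at -0.23 ± 0.0907 (adjusted p = 0.158 by edgeR).

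Of 10 tested genes for other inhibitory ligands, 2 rose and 2 fell, 40% of them, beside 8.54% of all genes. The galectin genes Lgals9, a ligand of Tim-3, and Lgals3 rose by 0.35 ± 0.0735 and 0.36 ± 0.0807 on the log2 scale. Nectin2, which binds TIGIT and DNAM-1, fell by 0.47 ± 0.0902 and Cd47, the signal that restrains phagocytes, by 0.30 ± 0.0664. Under library-total scaling neither galectin was called, and with DESeq2 or RLE factors 1 gene of the list was called higher. Of 12 tested TNF family ligands, Tnfsf8 fell by 0.75 ± 0.15 (13.0 to 6.09 CPM in set A, and 22.8 and 23.2 to 15.9 CPM in set B). The scarce Tnfsf14 rose by 1.06 ± 0.236, at 0.407 to 5.64 CPM over the libraries, while DESeq2 called 0 of these ligands higher. The genes called by edgeR were 16.7% of these TNF family ligands, beside 8.54% of all genes. Tnf, the most abundant, stood at 0.20 ± 0.166 and was 4.2-fold lower in set A. In the SLAM and CD2 family, to which Cd48 belongs, Slamf9 fell by 0.91 ± 0.134 and the other 8 tested genes were not called. The share called, 11.1%, was near the 8.54% of all genes. The most abundant, Cd84, stood at 0.18 ± 0.0673. Of the other B7 and butyrophilin genes only 2 of 9 were tested and neither was called. Vsir, the gene of VISTA, stood at 127, 139 and 136 CPM in controls and 166 and 157 CPM in H2O2 (log2 0.28 ± 0.0744, adjusted p = 0.0683 by edgeR).

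The receptors that these ligands meet were also measured. Of 6 tested, Cd28 rose by 0.80 ± 0.172 (9.07 to 13.4 CPM in set A, and 2.54 and 2.56 to 5.38 CPM in set B; adjusted p = 0.0383 by edgeR). The share called was 16.7%, beside 8.54% of all genes, and DESeq2 called 0 of these receptor genes. The most abundant, Tnfrsf9, the receptor of the Tnfsf9 product, stood between 275 and 344 CPM in every library (log2 -0.09 ± 0.0748). The T cell gene Lck stood between 0.65 and 1.16 CPM.

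The genes whose course over the 5 libraries came nearest to a called ligand were found by the root mean square distance of centred log2 CPM, among 8530 other genes that averaged 10 CPM or more. For Cd83 they were Irf8 (0.033), Zhx2 (0.057) and Sema6d (0.073). Irf8, a transcription factor of dendritic cell development, fell by 0.45 ± 0.0692 and was 2.49-fold higher in set A. For Cd86 they were Add3 (0.015), Mettl14 (0.021) and Taf1b (0.03). With 5 libraries that share the set difference, these distances are a description. Since Irf8 was picked here for nearness to Cd83, a fall and a set difference close to those of Cd83 were given by the choice.

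Cell type markers moved with the treatment too, and in no marker list was a gene at 0 in every library. Beside the counts that follow, 3.93% of all tested genes were called higher and 4.61% lower. Of 7 tested dendritic cell markers 5 fell (Irf8, Cd74, H2-Ab1, Flt3 and Zbtb46), with the list's sum at 5646 to 6610 CPM in controls and 4715 to 5579 CPM in H2O2, and Cd74 fell by 0.41 ± 0.073. Macrophage markers summed to 489 to 512 CPM in controls and 612 to 629 CPM in H2O2, where 1 of 7 rose (Cd68, by 0.40) and 2 fell (C1qb, by 0.91, and C1qc). C1qb went from 19.7 to 9.93 CPM in set A and C1qc from 10.5 to 4.02 CPM. Both were scarce in set B, with C1qb at 0.967 and 1.22 CPM in the controls and 0.713 CPM under H2O2. C1qc had 0.665 and 0.854 CPM in those controls and 0.518 CPM under H2O2. DESeq2 called 0 macrophage markers lower. All 5 mast cell and basophil markers fell, from a sum of 15.4 to 55.5 CPM to one of 2.13 to 6.15 CPM, with Prss34 at -3.76 ± 0.396 and Mcpt8 at -3.39 ± 0.47. Of 5 tested neutrophil markers Mpo alone was called, at -3.77 ± 0.579, while S100a9, the most abundant, stood at 0.09 ± 0.229. S100a8 lay the other way, at 0.94 ± 0.229 (adjusted p = 0.0534 by edgeR), from 20.7 to 34.5 CPM in set A and from 41.3 and 74.8 to 120.6 CPM in set B. With library totals alone 1 neutrophil marker was called higher. In the list sums neutrophil markers ran from 63.6 to 302 CPM in controls and from 71.5 to 307 CPM in H2O2. Of the B cell markers Cd79b alone passed the filter, and it stood at -1.71 ± 0.472 (adjusted p = 0.0708 by edgeR). In bulk RNA, fewer cells of a type and less RNA per cell cannot be told apart, and the part of these cells in the changes of Cd83 and Cd86 was not tested.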

How the data were processed

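Each deposited sample file gives an estimated count of reads for every gene. Per the file headers these are read counts, and no scaling was seen in them: totals differ and 8.38% to 9.03% of the values in a file have a fractional part. HISAT, Bowtie2 and GRCm38.p6 are listed in the submitters' processing notes, without roles or versions. What counted the reads, with which annotation and strand setting, is not given in the sources used here, so overlapping genes may share reads. RefSeq's GRCm38.p6 gene table matched 17520 of 17567 rows (99.7%).

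Counts were rounded, filtered with filterByExpr (minimum count 10, minimum total 15, grouped by treatment) and scaled with TMM. EdgeR 4.0.16 (R 4.3.3) fitted treatment and library set (2 residual degrees of freedom), set A being the libraries with 100 or more counts over 4 Y-linked genes. SEs are the absolute log2 change divided by the square root of F. CPM are mean ± SD, and within-set differences use log2 CPM with a prior count of 2. Alternatives used DESeq2 1.42.0 and limma 3.58.1. The members, lists, set term and tests were chosen with earlier results of these data known. The genes named are all members and, in each list, the 2 lowest p-values among called genes and the highest mean CPM, plus the 3 nearest genes of each called member. Other list genes, such as Itgax and Relb, were named after their values were seen. The fit was tested on simulated data, where the share of false calls ran above the nominal rate. The table of the whole series was not used here.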

Additional observations from a re-analysis of the deposited data

How the results depend on the processing

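Without the set term edgeR called 0 genes higher and 0 lower, and 0 ligand genes lower (853 genes had an unadjusted p under 0.05, and the smallest adjusted p was 0.39). With no low-count filter it called 60 higher, 42 lower and 0 ligand genes lower. With libraries scaled to their totals alone 910 genes were lower and 384 higher, against 563 and 480 in the reported fit. Leaving out 1 library at a time gave 1 to 1248 genes higher, 0 to 816 lower and 0 to 2 ligand genes lower, with the lowest of each without H2O2 replicate 2. With a replicate block (titles with the same ending) in place of the set term, edgeR called 220 genes higher and 334 lower, and 1 ligand gene lower, Cd83 (adjusted p = 0.025), while Cd86 had an adjusted p of 0.112. Control replicate 3 is alone in its block, because the copied H2O2 file was dropped, and adds nothing to the H2O2 comparison there. The block leaves 1 residual degree of freedom, and calls lost under it may reflect the loss of that control. Under the block 0 of the other inhibitory ligands were called (Lgals9 0.119, Lgals3 0.118, Nectin2 0.0736, Cd47 0.133), Cd28 was not (0.0736), 2 maturation genes were lower instead of 6, 0 CD40 and NF-kB genes were lower instead of 2, and S100a8 was called higher (adjusted p = 0.00599). The block also called 0 macrophage markers, higher or lower, with Cd68 at an adjusted p of 0.0579 by edgeR. Tnfsf14 was not called under it either (0.125). The replicate numbers are not stated to mark shared mice or days, and the first H2O2 library could be replicate 3. Deviations from the group means correlated across genes with r = 0.81 for the first pair and 0.714 for the second. Control replicate 3 with H2O2 replicate 2, which the block does not pair, gave 0.66. The deviations of the 2 H2O2 libraries mirror each other, and the block also parts the sets. These correlations therefore cannot tell pairing from the sets. DESeq2, limma-voom, RLE factors and a minimum count of 50 kept Cd83 and Cd86 called.

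Among the ligand genes, signs turned only in those not called. Under H2O2, Cd40 stood at log2 0.067 without the set term and between -0.193 and 0.0701 with 1 library left out, and Pdcd1lg2 between -0.346 and 0.00252. Between the sets Pdcd1lg2 stood at 0.0755 with library totals and between -0.205 and 0.145 with 1 library left out. The cause of these shifts was not tested. Depth was nearly equal, and the number of distinct H2O2 libraries, 2, limits these comparisons.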
